A study of Mus musculus with 16 samples.

Results

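The genes described here encode the enzymes of glycolysis and of the pentose phosphate pathway, together with the main glucose transporters and the enzymes that set the activity of phosphofructokinase. A list of 33 mouse genes was looked up by symbol in the table of estimated counts. All 33 were found among its 15571 genes, and all 33 passed the filter on low counts that left 14985 genes tested. The list held 2 transporters, 10 enzymes of upper glycolysis (from glucose to the triose phosphates), 4 regulators of phosphofructokinase, 7 enzymes of lower glycolysis (from the triose phosphates to pyruvate), 2 phosphoglucomutases, 3 enzymes of the oxidative pentose arm and 5 of the non-oxidative arm and its exit to nucleotides. The name Aldoa matched 2 identifiers, and the one with more counts was used.

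The libraries were made from mouse T cells that were sorted as naive CD4+ cells and then cultured under Th17 conditions for 3 days. Every mouse carried floxed PDH alleles (PDH fl/fl). KO cells came from mice that also carried CD4-Cre, which deletes floxed alleles in the T cell lineage from the CD4-expressing stage of thymic development onward, and WT cells came from mice without Cre. The groups, of 4 libraries each, were KO acetate (CD4-Cre, with 10 mM sodium acetate in the culture), KO untreated (CD4-Cre, no acetate), WT acetate (no Cre, 10 mM sodium acetate) and WT untreated (no Cre, no acetate). The Th17 mixture held TGFβ (2 ng/mL), IL-6 (30 ng/mL) and antibodies to IFNγ (5 µg/mL), CD28 (1 µg/mL) and, bound to the plate, CD3 (5 µg/mL). No group controlled for sodium or for Cre without floxed alleles. The labels give neither the age of the mice nor which gene of the complex was floxed, and the sample titles write PHD where the other labels write PDH. They do not say that the libraries of a group came from separate mice or cultures, so the p-values take in only the variation among these libraries, which may be technical.

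Glycolysis splits glucose into pyruvate. Hexokinase and phosphofructokinase commit the sugar in the upper part, and the steps from glyceraldehyde phosphate to pyruvate recover ATP in the lower part. The pyruvate dehydrogenase complex (PDH) turns pyruvate into acetyl-CoA in mitochondria, and cells can also make acetyl-CoA from acetate. The pentose phosphate pathway leaves glycolysis at glucose phosphate. Its oxidative arm makes NADPH, and its non-oxidative arm makes ribose phosphate for nucleotides and returns carbon to glycolysis. Th17 cells are known for a high rate of glycolysis, which the transcription factor HIF-1 promotes by raising the transcription of glycolytic genes.

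Library totals lay between 24.57 M and 33.72 M counts, and all 24 replicate pairs within groups differed by more than counting noise. In 4 libraries, KO acetate 2, KO untreated 1, KO untreated 2 and WT untreated 1, a single gene without a name in the reference held more than 3% of the counts, and members' calls that were lost without these libraries are given with both values. Whole-gene counts of the PDH subunits do not check the genotype, since an allele can lose an exon and keep its transcript. Pdha1 stood at 248 ± 13 CPM in KO acetate cells, 225 ± 11.5 CPM in KO untreated cells, 259 ± 10.8 CPM in WT acetate cells and 247 ± 12.6 CPM in WT untreated cells (SD, n = 4 each). All 7 T cell markers and all 6 Th17 markers were present, and Cd4 averaged 384 to 458 CPM over the groups. The T cell markers summed to 1680 to 1850 CPM in KO acetate, 1870 to 2020 CPM in KO untreated, 1890 to 2020 CPM in WT acetate and 2080 to 2190 CPM in WT untreated libraries. Of other cell types, the 5 B cell markers summed to at most 6.09 CPM in any library, 3 of 6 myeloid markers and 2 of 4 NK cell markers were in the table, and the 3 haemoglobin genes were not. The 2 CD8 markers together reached 13.7 to 18.2 CPM in KO acetate, 5.13 to 8.35 CPM in KO untreated, 13.1 to 17.2 CPM in WT acetate and 9.08 to 11.2 CPM in WT untreated libraries. The 4 proliferation markers summed to 1600 to 1840 CPM in KO acetate, 1730 to 2060 CPM in KO untreated, 1720 to 2000 CPM in WT acetate and 1970 to 2190 CPM in WT untreated libraries, and the part of these 3 lists in the differences below was not tested.

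Levels are given as CPM, a gene's counts per 1000000 counts of its library after TMM scaling, and the mean ± SD is over 4 libraries. Differences are given on the log2 scale with their standard error (SE), as KO over WT or acetate over untreated. Adjusted p-values come from the quasi-likelihood F test of edgeR, adjusted by Benjamini-Hochberg over all 14985 genes. A gene is said to have risen or fallen where its adjusted p was under 0.05. In bulk libraries, fewer cells of one kind and less RNA per cell cannot be told apart.

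Per kilobase of transcript, averaged over the 16 libraries, the 3 most abundant members were enzymes of lower glycolysis. Gapdh, which encodes glyceraldehyde phosphate dehydrogenase, reached 2630 CPM per kilobase, ahead of Pkm (pyruvate kinase) with 777, Eno1 (the main enolase) with 686 and Aldoa (the main aldolase) with 568 CPM per kilobase. In the pentose branch, Tkt, which encodes transketolase, was highest with 164 CPM per kilobase, and Pgls (lactonase) and Rpe (ribulose phosphate epimerase) had 50.9 and 22.5 CPM per kilobase. The isozyme genes Pfkfb2, Aldoc and Pfkfb4 were lowest, with 1.27, 2.67 and 3.40 CPM per kilobase. Gapdh and other abundant members have processed copies in the mouse genome. Prps1l3, a copy named after Prps1, was itself listed with a mean of 49.4 CPM, and how the estimates divided reads between such copies is not given in the sources used here.

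KO cells without acetate had less RNA of most glycolytic enzymes than WT cells without acetate. Of the 33 members, 19 fell, against 18.6% of all genes tested, and 5 rose, against 18% of all genes. The median log2 difference of the members was -0.32, and that of all genes was 0.014. The fall took in 12 of the 17 enzymes of upper and lower glycolysis, whose median was -0.44, and 1 enzyme, the ADP-dependent glucokinase Adpgk, rose. The 8 pentose genes divided evenly: 3 rose (Pgls, Rpe and Tkt), 3 fell (G6pdx, Pgd and Taldo1), and their median was -0.037. Of these pentose calls, that of Taldo1 alone was kept in every alternative run. Those of Pgls, Rpe, G6pdx and Pgd were lost without the 4 libraries named above, and those of Rpe and Tkt with library totals. Among the glycolytic calls, that of Pfkl alone was not kept in every alternative run. With library totals in place of TMM scaling 2 members rose and 22 fell, while of all 14985 genes 1914 rose and 3217 fell. Without the 4 libraries named above 2 members rose and 18 fell, while of 15374 genes 1577 rose and 1784 fell.

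Acetate in KO cells moved the members both ways. Of the 33, 9 rose, against 22.1% of all genes tested, and 7 fell, against 21.6% of all genes, so both shares lay near those of the whole table. The members that rose were Hk1, Hk2, Pfkm, Pfkp, Pfkfb3, Tigar, Bpgm, Eno3 and Taldo1. Those that fell were Slc2a1, Adpgk, Pfkl, Gapdh, Pgk1, Pgls and Tkt. The median was 0.055 over the members and -0.0093 over all genes. Scaling by library totals moved the median of all genes to 0.0945 and that of the members to 0.159. The split of the members became 14 higher and 5 lower, and that of all 14985 genes 4229 higher and 2085 lower.

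In WT cells acetate lowered 12 members, against 7.55% of all genes tested, and raised 4, against 7.89% of all genes. Among the 17 glycolytic enzymes 7 fell and 2 rose, with a median of -0.24, and among the 8 pentose genes 3 fell and 1 rose, with a median of -0.12. The 4 that rose were Tigar, Bpgm, Eno3 and Taldo1. With library totals 6 members fell and 4 rose, while of all 14985 genes 558 fell and 1196 rose. Without WT untreated 2 or without WT acetate 1 the members' calls in both directions numbered 10. Of all genes, 806 fell and 864 rose in the first of these fits (15336 tested). In the second 734 fell and 835 rose (15285 tested).

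The acetate effect differed between the genotypes for 11 members. For 9 of them it was more positive in KO than in WT cells, against 6.37% of all genes tested, and for 2, Adpgk and Pgls, it was more negative, against 5.54% of all genes. The 9 were Hk1, Hk2, Pfkp, Tpi1, Pfkfb3, Tigar, Pkm, Pgm1 and Taldo1. Calls for Hk1, Hk2, Pfkp, Pfkfb3 and Pgls were kept in every alternative run, and those for the other 6 were not. Without the 4 libraries in which the unnamed gene held more than 3% of the counts, 15374 genes were tested. The effect was more positive in KO cells for 546 of them and more negative for 464. In that fit 6 members were called. The count was 6 or 7 without KO acetate 2 (7), KO acetate 3 (6), KO untreated 2 (7), KO untreated 3 (6), WT acetate 1 (7), WT acetate 3 (6), WT acetate 4 (7), WT untreated 2 (6) or WT untreated 3 (7). Each group enters several comparisons (KO untreated libraries, for example, serve both the genotype difference without acetate and the acetate effect in KO cells), and the interaction uses all 16 libraries, so the values for a gene are not independent of each other.

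**Figure D1:**
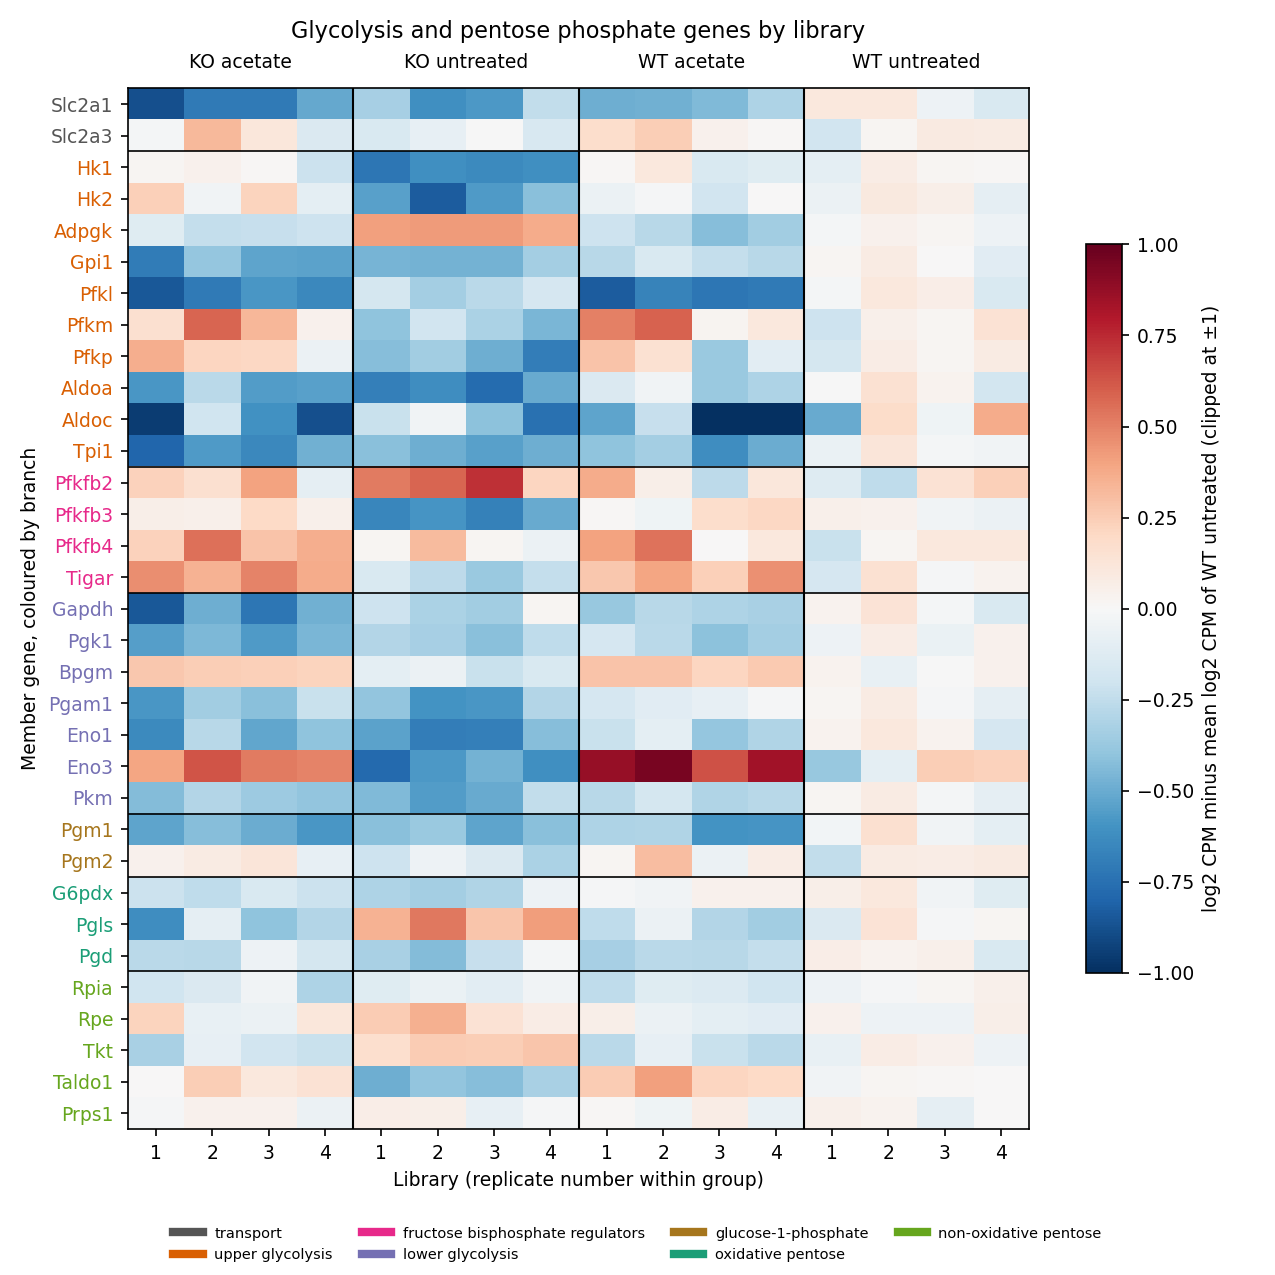
Each cell is the log2 CPM of 1 gene (rows, by branch) in 1 library (columns, 4 per group) minus that gene's mean in WT untreated libraries, from blue (lower) to red (higher) and clipped at 1 in either direction. Hk1, Hk2 and Pfkfb3 are blue in all 4 KO untreated libraries, Adpgk, Pgls and Tkt are red there, and Tpi1, Pgk1 and Gpi1 are blue across KO acetate, KO untreated and WT acetate libraries.

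The transporters set the entry of glucose. Slc2a1, which encodes GLUT1, the transporter that activated T cells use most, had 55.7, 62.9, 62.6 and 71.7 CPM in the KO acetate libraries and 81.2, 66.9, 68.9 and 86.3 CPM in the KO untreated libraries. Slc2a1 had 72.9, 73.4, 75.2 and 82.9 CPM in the WT acetate libraries and 110.1, 110.2, 98.7 and 92.1 CPM in the WT untreated libraries. All 4 WT untreated libraries lay above the other 12, and the KO acetate libraries lay below the WT acetate libraries by a narrow gap. Slc2a1 fell in KO untreated against WT untreated cells (log2 fold change -0.44, SE 0.089, adjusted p = 0.000884), with acetate in WT cells (log2 fold change -0.43, SE 0.089, adjusted p = 0.00287) and with acetate in KO cells (log2 fold change -0.26, SE 0.090, adjusted p = 0.0235). The last of these was not called without KO acetate 1 (-0.20), KO acetate 3 (-0.26), KO untreated 1 (-0.23) or KO untreated 4 (-0.20), nor with library totals (-0.16) or without the 4 high-share libraries (-0.30). Slc2a3, which encodes the high-affinity transporter GLUT3, had 28.8, 36.5, 31.6 and 26.4 CPM in the KO acetate libraries and 26.2, 27.5, 29.03 and 26.1 CPM in the KO untreated libraries. Slc2a3 had 32.9, 34.6, 30.1 and 29.5 CPM in the WT acetate libraries and 25.5, 29.5, 31.1 and 30.9 CPM in the WT untreated libraries. The groups overlapped in every comparison made, and none of the 6 comparisons was called, the smallest adjusted p being 0.122. Slc2a1 made up 71.3% ± 3.84 of the 2 transporters' RNA per kilobase in KO acetate, 77% ± 2.97 in KO untreated, 74.4% ± 2.40 in WT acetate and 80.9% ± 2.54 in WT untreated libraries.

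Hk1, Hk2, Pfkp and Pfkfb3 shared a pattern: each was lower in KO untreated cells than in WT untreated cells, rose with acetate in KO cells, and showed no called acetate effect in WT cells. Hk1 and Hk2 encode hexokinases, which trap glucose in the cell as a phosphate, Pfkp encodes the platelet-type phosphofructokinase, and Pfkfb3 makes the sugar bisphosphate that activates phosphofructokinase. Hk1 had 233, 237, 232 and 198 CPM in the KO acetate libraries and 139, 150.4, 148 and 150.2 CPM in the KO untreated libraries. Hk1 had 231, 247, 207 and 212 CPM in the WT acetate libraries and 214, 241, 233 and 231 CPM in the WT untreated libraries. The KO untreated libraries lay below the other 12, which overlapped. Hk1 was 1.57-fold lower in KO untreated than in WT untreated cells (log2 fold change -0.65, SE 0.069, adjusted p = 1.55e-06) and 1.53-fold higher with acetate in KO cells (log2 fold change 0.61, SE 0.069, adjusted p = 1.02e-06). With acetate in WT cells the difference was -0.037 (adjusted p = 0.78). The acetate effects differed between the genotypes by 0.65 (SE 0.10, adjusted p = 0.000338).

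Hk2, the hexokinase gene induced on T cell activation, had 163, 135, 162 and 129 CPM in the KO acetate libraries and 95.01, 77.6, 93.4 and 103 CPM in the KO untreated libraries. Hk2 had 133, 137, 121 and 139 CPM in the WT acetate libraries and 133, 148, 144 and 129.8 CPM in the WT untreated libraries. As with Hk1, the KO untreated libraries stood alone at the bottom. Its difference between KO untreated and WT untreated cells was -0.58 (SE 0.088, adjusted p = 5.62e-05), its acetate effect in KO cells was 0.67 (SE 0.088, adjusted p = 6.87e-06), and the acetate effects differed by 0.74 (adjusted p = 0.00101). Hk1 supplied 66.4% ± 2.15 of the RNA per kilobase of the 2 hexokinases in KO acetate, 67.3% ± 2.89 in KO untreated, 68.5% ± 1.54 in WT acetate and 68.2% ± 1.01 in WT untreated libraries. These shares differed by less than their spread.

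Pfkfb3 had 57.1, 56.8, 62.9 and 56.8 CPM in the KO acetate libraries and 34.9, 36.5, 34.3 and 38.6 CPM in the KO untreated libraries. Pfkfb3 had 55.2, 53.2, 62.04 and 63.1 CPM in the WT acetate libraries and 56.9, 56.4, 53.6 and 52.5 CPM in the WT untreated libraries. The KO untreated libraries, none above 38.6 CPM, lay below all others, none of which was under 52.5 CPM. Pfkfb3 fell in KO untreated against WT untreated cells (log2 fold change -0.60, SE 0.066, adjusted p = 1.93e-06), rose with acetate in KO cells (log2 fold change 0.69, SE 0.066, adjusted p = 1.5e-07) and differed in its acetate effect between the genotypes by 0.60 (adjusted p = 0.000427). Between KO acetate and WT acetate cells its difference was 0.00033 (SE 0.065). Pfkp had 321, 289.7, 288 and 239.6 CPM in the KO acetate libraries and 186, 197, 178 and 154 CPM in the KO untreated libraries. Pfkp had 304, 277, 193 and 232 CPM in the WT acetate libraries and 221, 264, 254 and 264 CPM in the WT untreated libraries. Here the WT acetate libraries were the most scattered, and 1 of them lay within the range of the KO untreated libraries. Pfkp fell in KO untreated against WT untreated cells (log2 fold change -0.49, SE 0.12, adjusted p = 0.00489) and rose with acetate in KO cells (log2 fold change 0.67, SE 0.12, adjusted p = 0.000269), with a difference of acetate effects of 0.67 (adjusted p = 0.0187). The summed CD8 markers were also lowest in the KO untreated libraries, and their part was not tested.

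**Figure D2:**
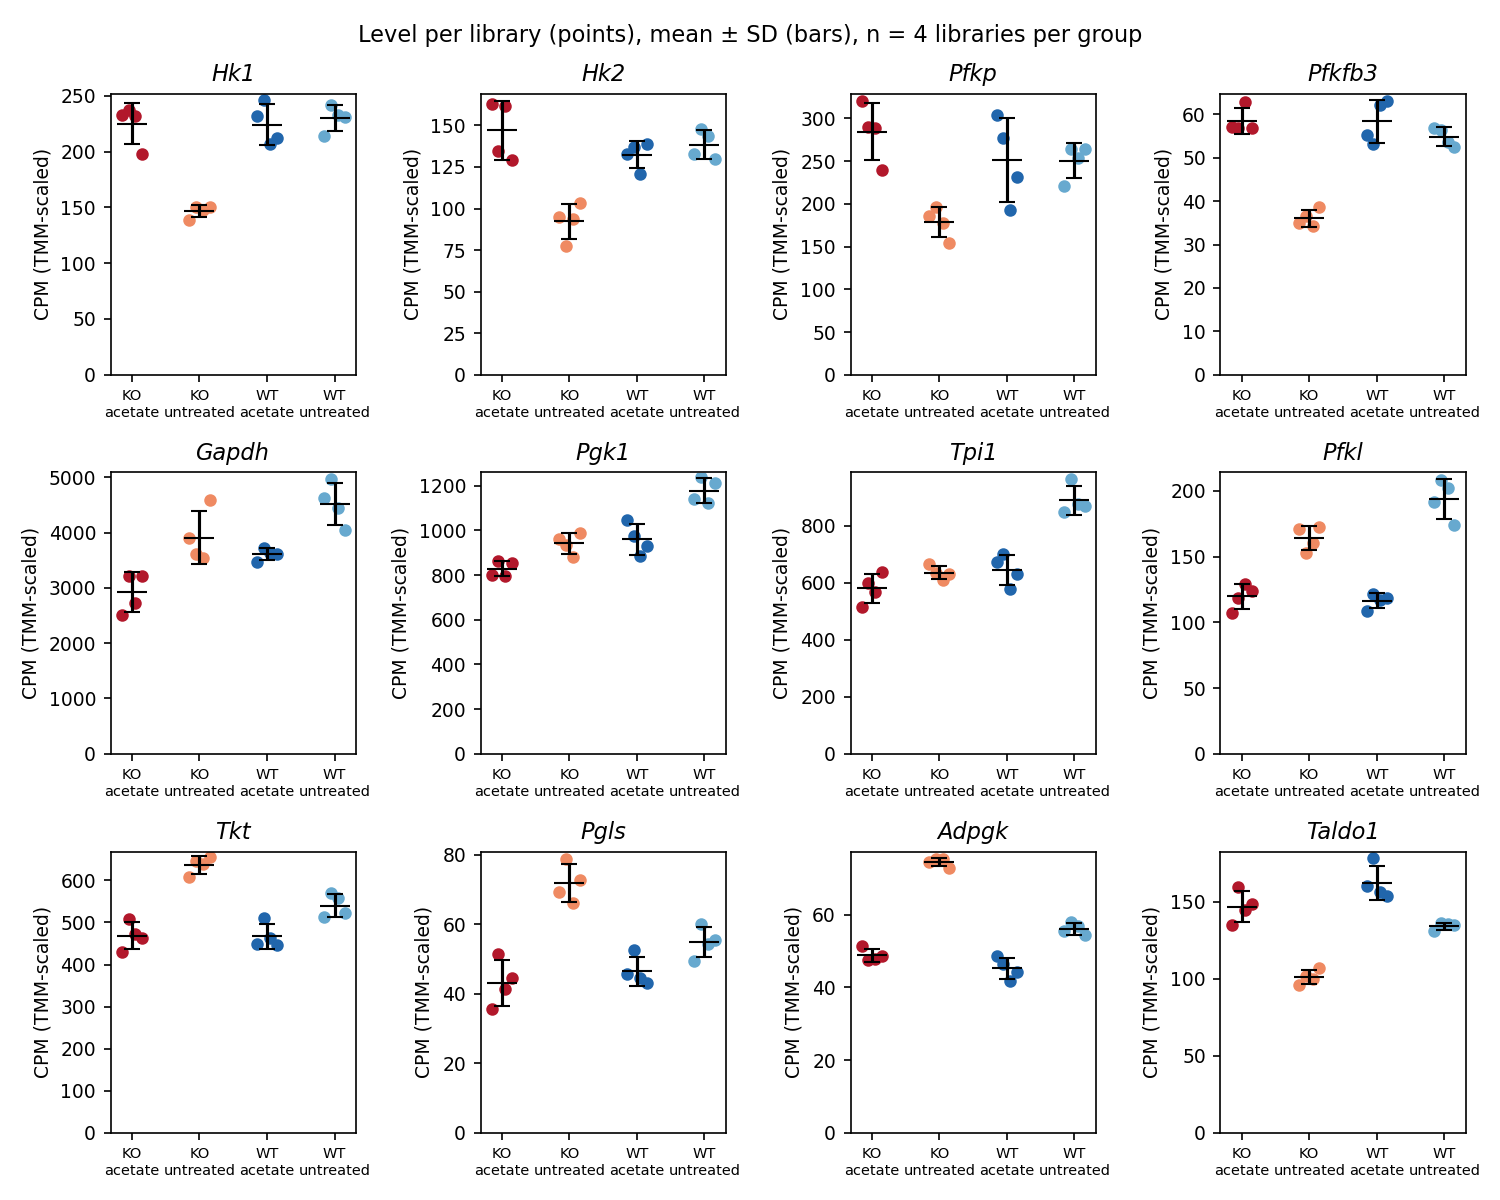
CPM after TMM scaling of 12 members in each library (points), with the mean and SD of the 4 libraries of a group (bars), on axes that start at 0. Hk1, Hk2 and Pfkfb3 are lowest in KO untreated libraries, Gapdh, Pgk1, Tpi1 and Pfkl are highest on average in WT untreated libraries, and Tkt, Pgls and Adpgk are highest in KO untreated libraries.

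The promoter windows of these 4 genes are shown because their RNA moved together, beside those of Pgk1 and Tpi1, which moved differently. Each is the RefSeq sequence of GRCm38.p6 over the 250 bases before and the 50 bases after an annotated start, read along the gene's strand. Capitals mark the core of the HIF-responsive element, ACGTG or GCGTG, on either strand, so that CACGT and CACGC are the same cores on the opposite strand. The E-box CACGTG holds ACGTG on both strands and was counted as 2 cores. The windows lie at chr10:62340372-62340671, minus strand (Hk1, 1 of its 2 starts), chr6:82774405-82774704, minus strand (Hk2), chr13:6648722-6649021, minus strand (Pfkp), chr2:11502041-11502340, minus strand (Pfkfb3, 1 of its 2 starts), chrX:106186850-106187149, plus strand (Pgk1) and chr6:124814109-124814408, minus strand (Tpi1).
Hk1: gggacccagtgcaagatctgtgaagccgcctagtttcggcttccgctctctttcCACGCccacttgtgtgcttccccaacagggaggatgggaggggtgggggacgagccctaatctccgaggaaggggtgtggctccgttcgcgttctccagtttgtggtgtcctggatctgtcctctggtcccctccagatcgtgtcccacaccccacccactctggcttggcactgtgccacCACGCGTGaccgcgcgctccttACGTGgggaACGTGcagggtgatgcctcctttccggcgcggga
Hk2: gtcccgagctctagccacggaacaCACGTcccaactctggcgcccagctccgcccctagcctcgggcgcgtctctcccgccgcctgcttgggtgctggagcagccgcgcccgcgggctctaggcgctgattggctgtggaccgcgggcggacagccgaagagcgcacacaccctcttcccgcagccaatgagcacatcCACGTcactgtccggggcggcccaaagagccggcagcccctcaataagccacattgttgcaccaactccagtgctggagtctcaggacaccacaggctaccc
Pfkp: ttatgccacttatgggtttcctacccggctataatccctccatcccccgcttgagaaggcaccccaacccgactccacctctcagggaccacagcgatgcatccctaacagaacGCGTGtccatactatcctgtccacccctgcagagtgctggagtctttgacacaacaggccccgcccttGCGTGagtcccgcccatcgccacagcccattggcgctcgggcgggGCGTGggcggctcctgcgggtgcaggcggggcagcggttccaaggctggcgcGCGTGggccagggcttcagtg
Pfkfb3: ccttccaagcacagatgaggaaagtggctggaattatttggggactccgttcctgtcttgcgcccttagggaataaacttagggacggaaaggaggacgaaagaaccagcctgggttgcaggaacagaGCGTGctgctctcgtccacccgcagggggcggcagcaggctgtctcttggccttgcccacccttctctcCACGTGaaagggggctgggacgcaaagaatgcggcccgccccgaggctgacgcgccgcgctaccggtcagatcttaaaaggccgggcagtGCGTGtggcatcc
Pgk1: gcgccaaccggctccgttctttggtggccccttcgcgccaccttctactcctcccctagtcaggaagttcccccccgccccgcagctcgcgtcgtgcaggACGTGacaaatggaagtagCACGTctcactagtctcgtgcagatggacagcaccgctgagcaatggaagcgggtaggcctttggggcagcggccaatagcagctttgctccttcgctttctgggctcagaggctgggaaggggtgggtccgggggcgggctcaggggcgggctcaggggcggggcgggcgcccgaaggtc
Tpi1: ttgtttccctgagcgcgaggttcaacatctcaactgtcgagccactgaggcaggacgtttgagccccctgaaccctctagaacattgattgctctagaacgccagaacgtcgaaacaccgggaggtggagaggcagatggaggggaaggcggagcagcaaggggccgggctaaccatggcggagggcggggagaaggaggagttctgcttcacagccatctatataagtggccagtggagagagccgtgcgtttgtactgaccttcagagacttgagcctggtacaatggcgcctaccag
These windows held 5, 2, 4, 4, 2 and 0 cores in that order, and the other Hk1 and Pfkfb3 windows held 0 and 1. Of the members, 32 matched the RefSeq table with 46 windows, and 36 windows (78.3%) held at least 1 core, against 43.8% of all 32851 promoters of the same length. For the E-box the shares were 6.52% of the members' windows and 7.15% of all promoters. The members' windows had a median GC content of 60.5% and 18.5 CpG dinucleotides, against 52.7% and 7 for all promoters, and both cores contain a CpG. Slc2a3 had no matching entry. The letters describe the windows only.

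Of the other phosphofructokinase genes, Pfkl fell with acetate, whereas Pfkm rose with it in KO cells, as Pfkp did. Pfkl, the liver-type isozyme, had 107, 118, 129.5 and 124 CPM in the KO acetate libraries and 171, 152, 160.2 and 172 CPM in the KO untreated libraries. Pfkl had 109, 122, 117 and 118 CPM in the WT acetate libraries and 191, 208, 202 and 174 CPM in the WT untreated libraries. All 8 acetate libraries lay below all 8 untreated libraries. Acetate lowered Pfkl in WT cells (log2 fold change -0.74, SE 0.068, adjusted p = 1.93e-06) and in KO cells (log2 fold change -0.45, SE 0.068, adjusted p = 2.87e-05). It was also lower in KO untreated than in WT untreated cells (-0.24, adjusted p = 0.00935), a call lost without the 4 high-share libraries (-0.23, adjusted p = 0.0939). Pfkm, the muscle-type isozyme, averaged 25.7 ± 4.28 CPM in KO acetate cells, 16.6 ± 1.35 CPM in KO untreated cells, 26.3 ± 5.12 CPM in WT acetate cells and 21.04 ± 2.11 CPM in WT untreated cells. It rose with acetate in KO cells (log2 fold change 0.63, SE 0.13, adjusted p = 0.000824), and its difference between KO untreated and WT untreated cells was -0.34 (adjusted p = 0.0507, not called). As a share of the 3 isozymes per kilobase, Pfkp made up 62.5% ± 3.79 in KO acetate and 46.4% ± 3.33 in KO untreated libraries, and 59.7% ± 4.34 in WT acetate and 50.5% ± 2.41 in WT untreated libraries. Pfkl made up 29.4% ± 3.60 in KO acetate and 47.4% ± 3.64 in KO untreated libraries, and 31.4% ± 4.70 in WT acetate and 43.4% ± 2.88 in WT untreated libraries. In both genotypes the lowest Pfkp share with acetate (58.7% in KO and 54.5% in WT) lay above the highest without (50.1% in KO and 53.8% in WT).

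Of the other regulators, Tigar followed the acetate. Its product is a phosphatase that removes the activator of phosphofructokinase and so favours the pentose branch. Tigar had 59.9, 55.2, 60.95 and 55.9 CPM in the KO acetate libraries and 39.01, 36.2, 33.5 and 36.7 CPM in the KO untreated libraries. Tigar had 52.3, 56.9, 50.98 and 59.3 CPM in the WT acetate libraries and 38.5, 48.1, 42.9 and 44.3 CPM in the WT untreated libraries. Every acetate library lay above every untreated library. Tigar rose with acetate in KO cells (log2 fold change 0.67, SE 0.073, adjusted p = 6.68e-07) and in WT cells (log2 fold change 0.34, SE 0.072, adjusted p = 0.00387), and was lower in KO untreated than in WT untreated cells (-0.26, adjusted p = 0.00949). The difference of the acetate effects, 0.34 (adjusted p = 0.0371), was not called with upper-quartile scaling (0.32). Nor was it called without KO acetate 1 (0.32) or KO acetate 3 (0.31). The call was also lost without KO untreated 2 (0.33), KO untreated 3 (0.29) or KO untreated 4 (0.33). The same held without WT acetate 1 (0.32) or WT acetate 3 (0.30), and without WT untreated 2 (0.29), 3 (0.34) or 4 (0.33). Pfkfb2, which belongs to the same enzyme family as Pfkfb3, had 5.69, 5.42, 6.42 and 4.54 CPM in the KO acetate libraries and 6.96, 7.25, 8.02 and 5.62 CPM in the KO untreated libraries. Pfkfb2 had 6.27, 5.05, 4.04 and 5.23 CPM in the WT acetate libraries and 4.44, 4.06, 5.35 and 5.71 CPM in the WT untreated libraries. It rose in KO untreated against WT untreated cells, whose libraries overlapped in 1 value (log2 fold change 0.51, SE 0.16, adjusted p = 0.0169), a call lost without KO untreated 3 (0.44) or WT untreated 2 (0.43), with library totals (0.45) and without the high-share libraries (0.43). Pfkfb4, the family's testis-type member, averaged 13.4 ± 1.34 CPM in KO acetate cells, 11.01 ± 1.32 CPM in KO untreated cells, 12.6 ± 2.18 CPM in WT acetate cells and 10.5 ± 1.08 CPM in WT untreated cells. Of the 6 comparisons it was called between KO acetate and WT untreated cells alone (log2 fold change 0.36, SE 0.12, adjusted p = 0.0397). That call was lost without KO acetate 2 (0.28), KO acetate 3 (0.38), KO acetate 4 (0.35), WT untreated 1 (0.28), WT untreated 2 (0.36) or WT untreated 3 (0.39) and without the high-share libraries (0.21).

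Adpgk, the glucokinase that uses ADP, was the 1 enzyme of upper glycolysis that rose in KO untreated against WT untreated cells. It had 51.5, 47.5, 47.8 and 48.7 CPM in the KO acetate libraries and 74.5, 75.3, 75.4 and 72.8 CPM in the KO untreated libraries. Adpgk had 48.6, 46.3, 41.8 and 44.1 CPM in the WT acetate libraries and 55.5, 57.9, 56.9 and 54.3 CPM in the WT untreated libraries. The KO untreated libraries lay above all others, and both acetate groups lay below the WT untreated libraries. Adpgk rose in KO untreated against WT untreated cells (log2 fold change 0.41, SE 0.054, adjusted p = 1.6e-05) and fell with acetate in KO cells (log2 fold change -0.61, SE 0.054, adjusted p = 8.15e-08) and in WT cells (log2 fold change -0.31, SE 0.054, adjusted p = 0.000782). The 2 acetate effects differed (KO minus WT) by -0.30 (adjusted p = 0.0173). That last difference was not called with library totals (-0.24, adjusted p = 0.174) or without the high-share libraries (-0.27, adjusted p = 0.12).

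Gpi1, Aldoa and Tpi1 carry the sugar from glucose phosphate to the triose phosphates. Gpi1 (the isomerase) averaged 301 ± 26.7 CPM in KO acetate cells, 322 ± 15.1 CPM in KO untreated cells, 369 ± 15.1 CPM in WT acetate cells and 435 ± 24.6 CPM in WT untreated cells. It fell in KO untreated against WT untreated cells (log2 fold change -0.44, SE 0.067, adjusted p = 6.52e-05), and its acetate effect in KO cells was -0.10 (adjusted p = 0.255). In WT cells it fell with acetate (-0.24, adjusted p = 0.0212), a call lost without WT acetate 1 (-0.22), WT acetate 4 (-0.22), WT untreated 1 (-0.23), WT untreated 2 (-0.21) or WT untreated 3 (-0.23) and with library totals (-0.19). Aldoa averaged 782 ± 83.3 CPM in KO acetate cells, 699.7 ± 54.6 CPM in KO untreated cells, 945 ± 101 CPM in WT acetate cells and 1096 ± 103 CPM in WT untreated cells. It fell in KO untreated against WT untreated cells (log2 fold change -0.65, SE 0.092, adjusted p = 3.37e-05), with an acetate effect of 0.16 in KO cells that was not called (adjusted p = 0.173). Tpi1, the triose phosphate isomerase, averaged 580 ± 52.4 CPM in KO acetate cells, 636 ± 23.4 CPM in KO untreated cells, 646 ± 53.3 CPM in WT acetate cells and 889.7 ± 51.2 CPM in WT untreated cells. Its 4 WT untreated libraries, 849 to 964 CPM, lay above the other 12, none of which exceeded 701 CPM. Tpi1 fell in KO untreated cells (log2 fold change -0.48, SE 0.074, adjusted p = 6.59e-05) and with acetate in WT cells (log2 fold change -0.46, SE 0.074, adjusted p = 0.000382), while acetate in KO cells left a difference of -0.13 (adjusted p = 0.159). Its acetate effects differed by 0.33 (adjusted p = 0.0467), which was called in 2 of the 16 fits that left out 1 library, those without KO acetate 1 and WT acetate 2. Without the high-share libraries it was 0.37 (adjusted p = 0.102). The call was also lost with upper-quartile scaling (0.305) and with no filter on low counts (0.325). Aldoc, the brain-type aldolase, averaged 6.32 ± 1.56 CPM in KO acetate cells, 7.76 ± 1.59 CPM in KO untreated cells, 5.67 ± 2.32 CPM in WT acetate cells and 10.01 ± 2.45 CPM in WT untreated cells. It was at most 0.62% of the aldolase RNA per kilobase on average in any group, and was called in no comparison.

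Lower glycolysis was lower in KO untreated than in WT untreated cells for 5 of its 7 enzymes, and 5 of the 7 were not raised by acetate in either genotype. Pgk1, which encodes phosphoglycerate kinase, had 802, 863, 796 and 856 CPM in the KO acetate libraries and 962, 934, 881 and 989 CPM in the KO untreated libraries. Pgk1 had 1048, 976, 887 and 929 CPM in the WT acetate libraries and 1139, 1237, 1122 and 1213 CPM in the WT untreated libraries. The WT untreated libraries lay above the other 12, and the KO acetate libraries lay below all others. Pgk1 fell in KO untreated against WT untreated cells (log2 fold change -0.32, SE 0.065, adjusted p = 0.00081), with acetate in WT cells (log2 fold change -0.29, SE 0.065, adjusted p = 0.00472) and with acetate in KO cells (log2 fold change -0.18, SE 0.065, adjusted p = 0.0281). The last call was lost without KO acetate 1 (-0.17), KO acetate 3 (-0.16), KO untreated 1 (-0.18) or KO untreated 4 (-0.17), with library totals (-0.080), without the high-share libraries (-0.20) and with only the 2 groups in the fit (-0.18). The summed T cell markers were also lowest in KO acetate and highest in WT untreated libraries. By group mean Cd3d, Cd3g and Lck had this order at both ends. Cd4 and Trac were instead lowest in KO untreated cells, at 384 and 196 CPM, against 404 and 241 CPM in KO acetate cells. Cd3e and Trbc2 were highest in KO untreated cells, at 156 and 431 CPM, against 153 and 378 CPM in WT untreated cells. The part of these markers was not tested.

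Gapdh averaged 2920 ± 360 CPM in KO acetate cells, 3911 ± 473 CPM in KO untreated cells, 3611 ± 105 CPM in WT acetate cells and 4523 ± 381 CPM in WT untreated cells. The KO acetate libraries, 2508 to 3225 CPM, lay below all other libraries. Gapdh fell with acetate in KO cells (log2 fold change -0.42, SE 0.10, adjusted p = 0.00143) and in WT cells (-0.32, adjusted p = 0.0267), and the difference between KO untreated and WT untreated cells was -0.21 (adjusted p = 0.0926). The call in WT cells was lost without WT acetate 1 (-0.31), WT acetate 4 (-0.32), WT untreated 1 (-0.32), WT untreated 2 (-0.28) or WT untreated 3 (-0.33), with library totals (-0.28) and without the high-share libraries (-0.32).

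Pgam1, the phosphoglycerate mutase, averaged 580.3 ± 58.8 CPM in KO acetate cells, 551 ± 57.5 CPM in KO untreated cells, 711 ± 33.8 CPM in WT acetate cells and 759 ± 36.5 CPM in WT untreated cells, and the 8 KO libraries lay below the 8 WT libraries. Eno1 averaged 1254 ± 132 CPM in KO acetate cells, 1148 ± 103 CPM in KO untreated cells, 1443 ± 124 CPM in WT acetate cells and 1719 ± 138 CPM in WT untreated cells. Pkm averaged 1745 ± 73.5 CPM in KO acetate cells, 1673 ± 163 CPM in KO untreated cells, 1885 ± 75.1 CPM in WT acetate cells and 2257 ± 115 CPM in WT untreated cells. These 3 genes fell in KO untreated against WT untreated cells, with log2 fold changes of -0.46 for Pgam1 (adjusted p = 0.000224), -0.58 for Eno1 (adjusted p = 6.88e-05) and -0.43 for Pkm (adjusted p = 0.000134). With acetate in KO cells their differences were 0.075, 0.13 and 0.061, and none was called. Pkm fell with acetate in WT cells (-0.26, adjusted p = 0.0179), a call lost without WT acetate 1 (-0.25) or WT untreated 2 (-0.23) and with library totals (-0.21). For Pkm the acetate effects differed by 0.32 (adjusted p = 0.0439), which was not called without KO acetate 2 (0.29), KO acetate 3 (0.32), KO untreated 1 (0.31), KO untreated 2 (0.27), KO untreated 3 (0.29), WT acetate 1 (0.31), WT acetate 3 (0.31), WT acetate 4 (0.32), WT untreated 1 (0.31), WT untreated 2 (0.29) or WT untreated 3 (0.33). Without the high-share libraries it was 0.23 (adjusted p = 0.265).

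Eno3 and Bpgm rose with acetate in both genotypes. Eno3, the muscle-type enolase, had 16.9, 20, 18.5 and 18.2 CPM in the KO acetate libraries and 7.54, 8.68, 9.28 and 8.46 CPM in the KO untreated libraries. Eno3 had 23.6, 24.99, 20.1 and 23.1 CPM in the WT acetate libraries and 9.90, 12.1, 15.3 and 15.2 CPM in the WT untreated libraries. The 4 groups did not overlap, and KO untreated libraries were lowest, followed by WT untreated, KO acetate and WT acetate libraries. Acetate raised Eno3 in KO cells 2.17-fold (log2 fold change 1.12, SE 0.12, adjusted p = 6.88e-07) and in WT cells 1.75-fold (log2 fold change 0.81, SE 0.12, adjusted p = 0.000152), and Eno3 fell in KO untreated against WT untreated cells (log2 fold change -0.63, SE 0.12, adjusted p = 0.000557). Of the RNA per kilobase of Eno1 and Eno3 together, Eno3 supplied 1.88% ± 0.0945 in KO acetate and 0.957% ± 0.146 in KO untreated libraries. In WT acetate and WT untreated libraries it supplied 2.02% ± 0.0669 and 0.99% ± 0.251. The neuronal enolase Eno2 was not part of these shares. It averaged 14.8 CPM over the 16 libraries, against 15.7 CPM for Eno3. Bpgm, which makes and removes bisphosphoglycerate, had 30.1, 29.6, 29.4 and 29.1 CPM in the KO acetate libraries and 23.3, 24, 21.4 and 22.4 CPM in the KO untreated libraries. Bpgm had 30.4, 30.4, 29.04 and 29.9 CPM in the WT acetate libraries and 25.6, 23.7, 24.9 and 25.7 CPM in the WT untreated libraries. All 8 acetate libraries lay above all 8 untreated libraries, and the rise was 0.38 in KO cells (SE 0.056, adjusted p = 2.86e-05) and 0.26 in WT cells (SE 0.056, adjusted p = 0.00386). The summed Th17 markers were also higher with acetate. They reached 1580 to 2810 CPM in KO acetate against 634 to 910 CPM in KO untreated libraries. In WT acetate libraries they summed to 1230 to 2070 CPM, against 683 to 1090 CPM in WT untreated libraries. By group mean Ccr6 went the other way in KO cells, at 49.9 CPM with acetate and 56.3 CPM without. The part of these markers was not tested.

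**Figure D3:**
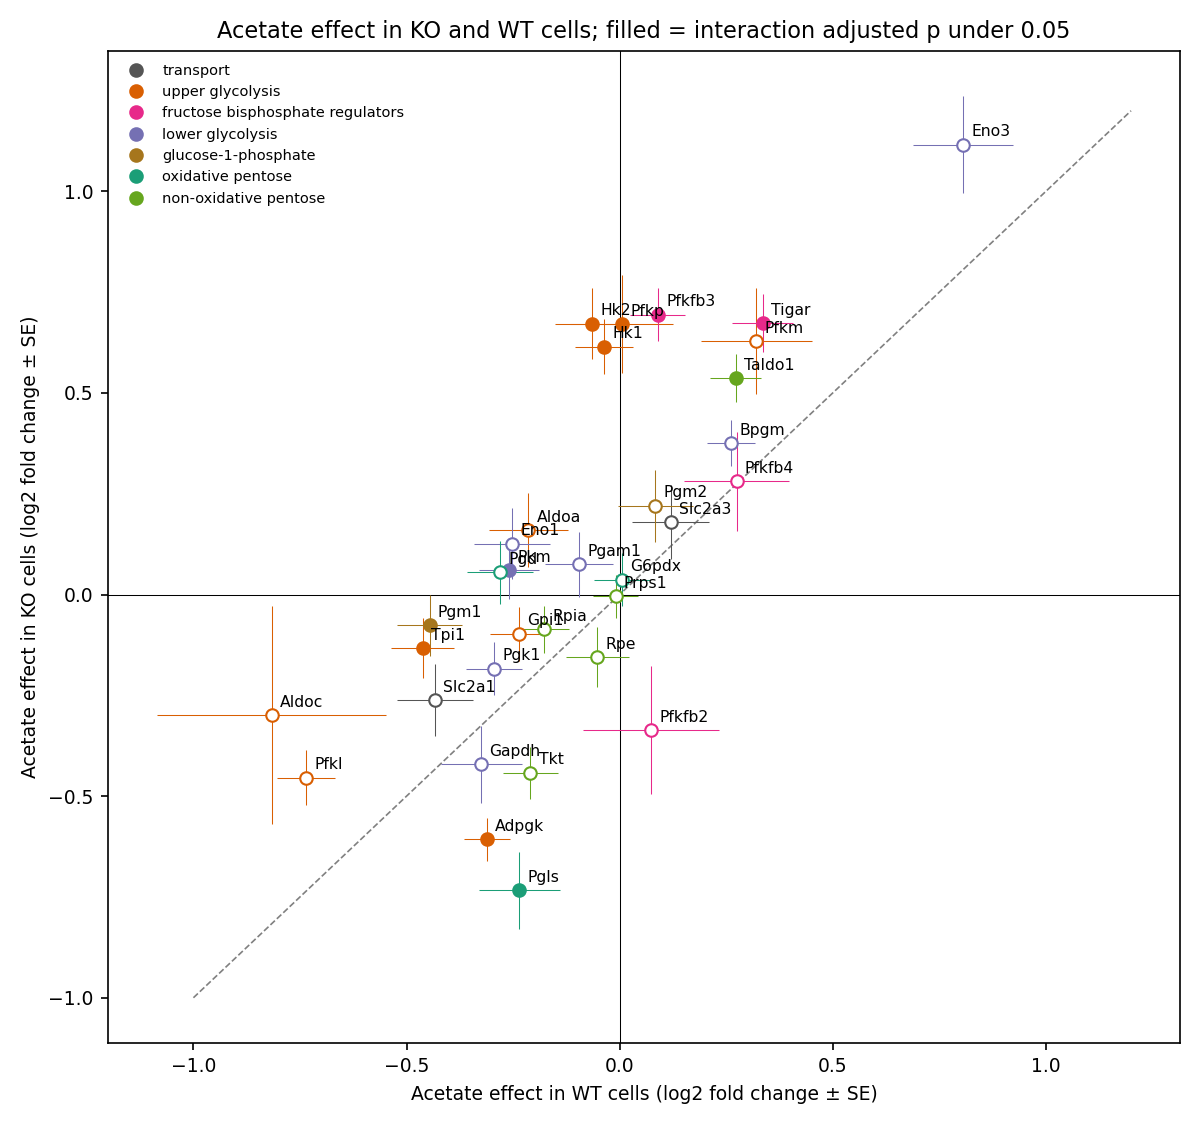
Log2 fold change with acetate in WT cells (horizontal) and in KO cells (vertical) for the 33 members, with SE as bars, coloured by branch. Filled points have an interaction adjusted p under 0.05, and the dashed line marks equal effects. Hk1, Hk2, Pfkp and Pfkfb3 lie between 0.61 and 0.69 in KO cells and near 0 in WT cells, and Eno3 lies highest on the vertical axis with 1.12 in KO cells and 0.81 in WT cells.

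Pgm1 and Pgm2 interconvert the glucose phosphates that lead to glycogen and to nucleotide sugars. Pgm1 had 42.4, 45.4, 43.4 and 40.8 CPM in the KO acetate libraries and 45.8, 47.3, 42.4 and 45.8 CPM in the KO untreated libraries. Pgm1 had 49.3, 49.6, 40.5 and 40.6 CPM in the WT acetate libraries and 60, 68.2, 59.7 and 57.2 CPM in the WT untreated libraries. The WT untreated libraries lay above the other 12, which overlapped. Pgm1 fell in KO untreated against WT untreated cells (log2 fold change -0.43, SE 0.076, adjusted p = 0.000228) and with acetate in WT cells (log2 fold change -0.45, SE 0.076, adjusted p = 0.000644), and its effect in KO cells was -0.076 (adjusted p = 0.447). The acetate effects differed by 0.37 (adjusted p = 0.0314), a call lost without KO acetate 2 (0.34), KO acetate 3 (0.37), KO untreated 3 (0.33), WT acetate 3 (0.32), WT acetate 4 (0.33) or WT untreated 2 (0.32) and without the high-share libraries (0.39). Pgm2, which also acts on pentose phosphates, had 36.4, 37.3, 38.5 and 33.4 CPM in the KO acetate libraries and 30.6, 34, 31.8 and 28.4 CPM in the KO untreated libraries. Pgm2 had 35.7, 43.6, 33.97 and 37.1 CPM in the WT acetate libraries and 29.7, 37.4, 37.2 and 37.5 CPM in the WT untreated libraries. It was called in no comparison, the smallest adjusted p being 0.0522 for acetate in KO cells (0.22).

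The oxidative pentose arm held 3 genes with different courses. G6pdx, the glucose phosphate dehydrogenase that commits carbon to the pathway, had 68.3, 66.4, 71.5 and 68.4 CPM in the KO acetate libraries and 63.96, 62.7, 64.4 and 76.7 CPM in the KO untreated libraries. G6pdx had 78.5, 77.2, 81.6 and 81.4 CPM in the WT acetate libraries and 82.4, 85.2, 77.1 and 72.8 CPM in the WT untreated libraries. KO and WT libraries overlapped without acetate, through KO untreated 4, and did not overlap with acetate. G6pdx fell in KO untreated against WT untreated cells (log2 fold change -0.25, SE 0.066, adjusted p = 0.00691), a call lost without the high-share libraries (-0.16, adjusted p = 0.215). The difference between KO acetate and WT acetate cells was of similar size but not called (-0.21, adjusted p = 0.101). Acetate effects on G6pdx were 0.037 in KO and 0.0054 in WT cells, and neither was called.

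Pgls had 35.5, 51.4, 41.2 and 44.5 CPM in the KO acetate libraries and 69.3, 78.7, 66.1 and 72.8 CPM in the KO untreated libraries. Pgls had 45.7, 52.6, 44.6 and 42.98 CPM in the WT acetate libraries and 49.5, 59.98, 54.2 and 55.3 CPM in the WT untreated libraries. The KO untreated libraries lay above the other 12. Pgls rose in KO untreated against WT untreated cells (log2 fold change 0.39, SE 0.095, adjusted p = 0.00351), though without the high-share libraries this was 0.29 (adjusted p = 0.0526), and it fell with acetate in KO cells (log2 fold change -0.73, SE 0.10, adjusted p = 6.36e-06). In WT cells the acetate effect was -0.24 (adjusted p = 0.104), and the effects differed by -0.50 (SE 0.14, adjusted p = 0.0218). Pgd, the phosphogluconate dehydrogenase, had 130, 129, 152 and 139 CPM in the KO acetate libraries and 126, 116, 134 and 154 CPM in the KO untreated libraries. Pgd had 124, 130.2, 129.5 and 133 CPM in the WT acetate libraries and 164, 161, 162 and 141 CPM in the WT untreated libraries. The WT untreated libraries lay above the WT acetate libraries and overlapped both KO groups. Pgd fell in KO untreated against WT untreated cells (log2 fold change -0.25, SE 0.077, adjusted p = 0.0174) and with acetate in WT cells (log2 fold change -0.28, SE 0.077, adjusted p = 0.0181). The first call was lost without KO untreated 1 (-0.22), KO untreated 2 (-0.18) or WT untreated 1 (-0.23) and without the high-share libraries (-0.11), and the second without WT acetate 1 (-0.26), WT untreated 1 (-0.26), WT untreated 2 (-0.27) or WT untreated 3 (-0.27) and with library totals (-0.23).

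In the non-oxidative arm the transketolase and transaldolase genes, whose products exchange carbon with glycolysis, moved in opposite directions. Tkt had 431, 509, 472 and 463 CPM in the KO acetate libraries and 608, 645, 640.2 and 655 CPM in the KO untreated libraries. Tkt had 448, 511, 462 and 447 CPM in the WT acetate libraries and 513, 569, 557 and 522 CPM in the WT untreated libraries. The KO untreated libraries lay above all others, and both acetate groups lay below the WT untreated libraries, each by a narrow gap. Tkt rose in KO untreated against WT untreated cells (log2 fold change 0.24, SE 0.064, adjusted p = 0.00729), a difference of 0.18 with library totals (adjusted p = 0.0774), and fell with acetate in KO cells (log2 fold change -0.44, SE 0.064, adjusted p = 2.08e-05). Its fall with acetate in WT cells (-0.21, adjusted p = 0.0331) was lost without WT acetate 1 (-0.19), WT acetate 3 (-0.20), WT acetate 4 (-0.19), WT untreated 2 (-0.18) or WT untreated 3 (-0.20), with library totals (-0.17) and with upper-quartile scaling (-0.18).

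Taldo1 had 135, 159, 144 and 149 CPM in the KO acetate libraries and 95.8, 102, 99.98 and 107 CPM in the KO untreated libraries. Taldo1 had 160.2, 179, 156 and 154 CPM in the WT acetate libraries and 131, 136, 135 and 135 CPM in the WT untreated libraries. The KO untreated libraries lay below all others, and the WT acetate libraries lay above the WT untreated libraries. Taldo1 fell in KO untreated against WT untreated cells (log2 fold change -0.41, SE 0.060, adjusted p = 4.41e-05) and rose with acetate in KO cells (log2 fold change 0.54, SE 0.060, adjusted p = 1.04e-06) and in WT cells (log2 fold change 0.27, SE 0.059, adjusted p = 0.00447). The acetate effects differed by 0.26 (adjusted p = 0.0478), which was called in 3 of the 16 fits that left out 1 library, those without KO acetate 1, KO untreated 4 and WT acetate 2. Without the high-share libraries it was 0.20 (adjusted p = 0.241). The call was also lost with library totals (0.32), RLE scaling (0.26), upper-quartile scaling (0.24) and no filter on low counts (0.26).

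Rpe had 68.4, 55.6, 56.3 and 63.4 CPM in the KO acetate libraries and 69.8, 74.9, 64.9 and 61.7 CPM in the KO untreated libraries. Rpe had 61.1, 56.1, 54.6 and 54.2 CPM in the WT acetate libraries and 60.5, 56.4, 56.7 and 60.9 CPM in the WT untreated libraries. It rose in KO untreated against WT untreated cells, whose libraries were set apart by a narrow gap (log2 fold change 0.21, SE 0.074, adjusted p = 0.0322). The call was lost without KO untreated 1 (0.20), KO untreated 2 (0.16), WT untreated 2 (0.19) or WT untreated 3 (0.19), with library totals (0.15) and without the high-share libraries (0.12). Rpia, the ribose phosphate isomerase, averaged 59.4 ± 4.68 CPM in KO acetate cells, 63.03 ± 1.75 CPM in KO untreated cells, 59 ± 2.51 CPM in WT acetate cells and 66.7 ± 2.03 CPM in WT untreated cells. It fell with acetate in WT cells (log2 fold change -0.18, SE 0.059, adjusted p = 0.0469). The call was lost in each of the 8 fits that left out 1 WT library (log2 fold change between -0.20 and -0.15). It was also lost with library totals (-0.13), with upper-quartile scaling (-0.15) and without the high-share libraries (-0.21, adjusted p = 0.0614). Prps1, which makes phosphoribosyl pyrophosphate from ribose phosphate for nucleotide synthesis, averaged 125 ± 4.24 CPM in KO acetate cells, 126 ± 5.82 CPM in KO untreated cells, 124 ± 5.64 CPM in WT acetate cells and 125 ± 5.24 CPM in WT untreated cells. All 16 libraries lay between 117 and 131 CPM, and the 5 comparisons of groups gave log2 fold changes between -0.0096 (acetate in WT cells) and 0.013 (KO acetate against WT acetate cells) with an SE of 0.053 each.

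The windows of Tkt (chr14:30548881-30549180, plus strand) and Prps1 (chrX:140456353-140456652, plus strand), from the same RefSeq table and marked in the same way, are shown as a pentose gene that rose in KO untreated against WT untreated cells, where 12 of the 17 glycolytic enzymes fell, and one called in no comparison.
Tkt: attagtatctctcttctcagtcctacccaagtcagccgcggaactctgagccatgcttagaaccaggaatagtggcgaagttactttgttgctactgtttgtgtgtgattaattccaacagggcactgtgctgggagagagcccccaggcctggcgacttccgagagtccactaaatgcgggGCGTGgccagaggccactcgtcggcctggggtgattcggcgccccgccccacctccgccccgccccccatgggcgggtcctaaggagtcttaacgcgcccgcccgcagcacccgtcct
Prps1: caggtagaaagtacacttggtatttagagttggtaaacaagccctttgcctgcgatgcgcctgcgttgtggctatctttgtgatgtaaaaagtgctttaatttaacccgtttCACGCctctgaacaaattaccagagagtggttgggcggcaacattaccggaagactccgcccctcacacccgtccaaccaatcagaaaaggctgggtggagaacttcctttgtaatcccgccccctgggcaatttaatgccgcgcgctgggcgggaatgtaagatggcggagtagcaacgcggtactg
Each held 1 core.

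**Figure D4:**
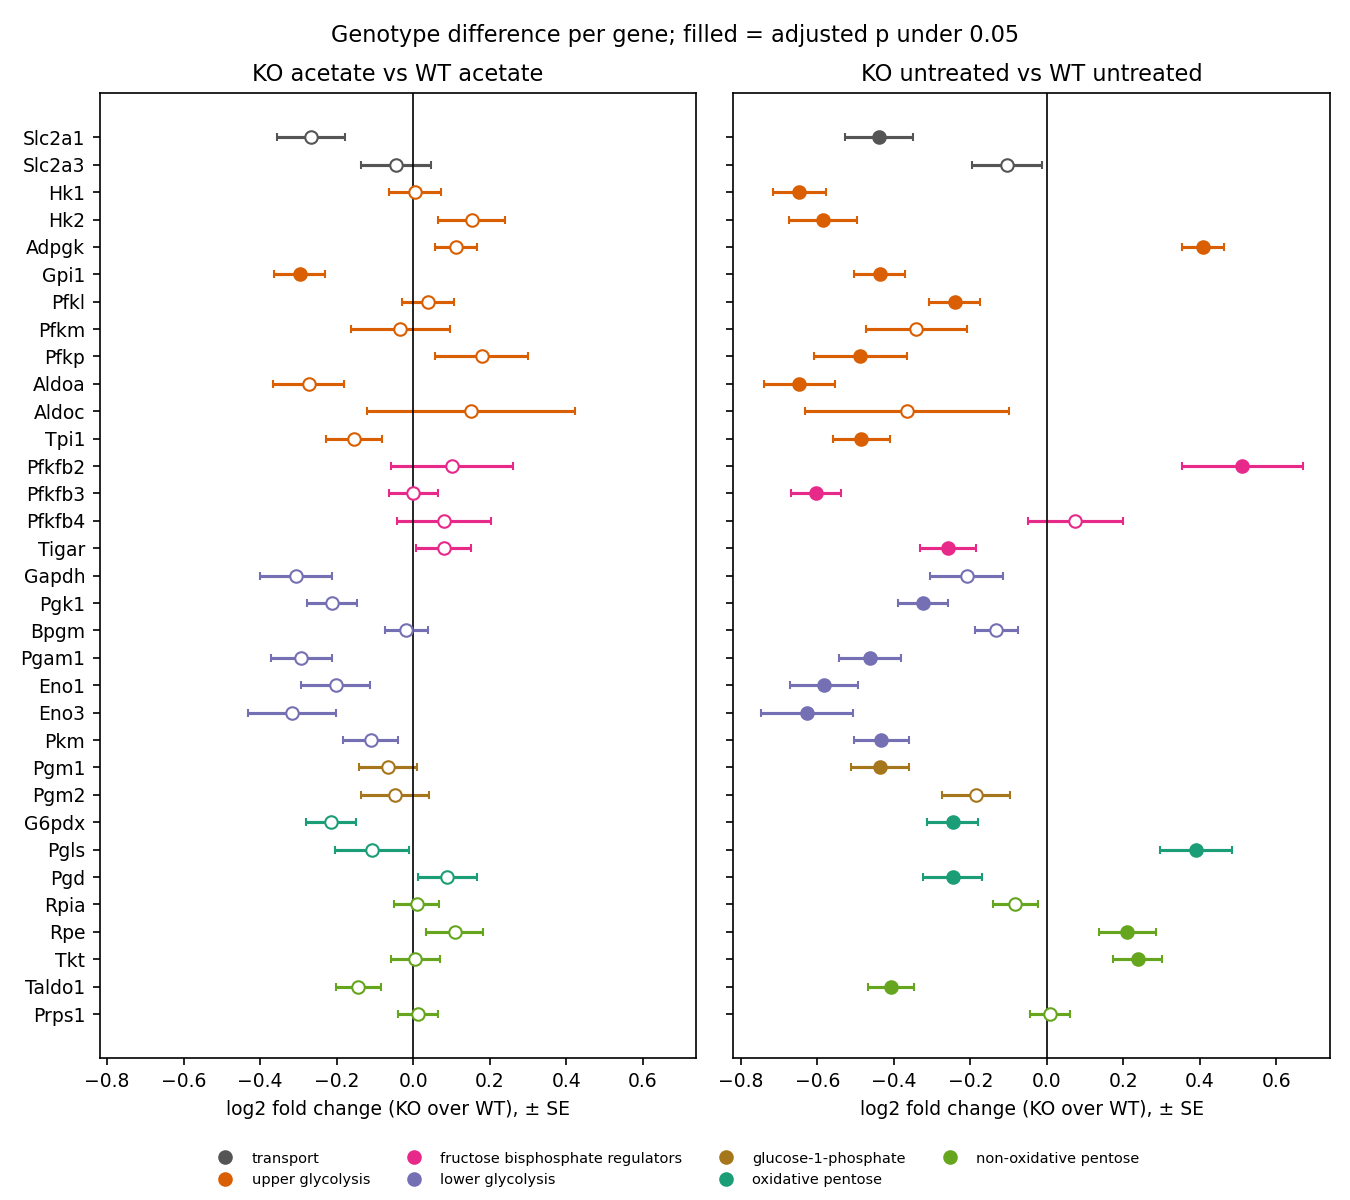
Log2 fold change of KO over WT for each member with SE as bars, with acetate (left) and without (right), coloured by branch; filled points have an adjusted p under 0.05. Without acetate 19 members are filled to the left of 0 and 5 to the right, and with acetate Gpi1 alone is filled, at -0.30.

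With acetate in both genotypes, 1 of the 33 members fell in KO against WT cells, compared with 0.514% of all genes tested, and none rose, compared with 0.487% of all genes. The gene was Gpi1 (log2 fold change -0.30, SE 0.067, adjusted p = 0.037), with 268, 333, 301 and 300 CPM in the KO acetate libraries and 358, 391, 369 and 359 CPM in the WT acetate libraries, which did not overlap. This call was lost without KO acetate 1 (-0.25), KO acetate 3 (-0.30), WT acetate 1 (-0.31), WT acetate 2 (-0.27), WT acetate 3 (-0.30) or WT acetate 4 (-0.31), with library totals (-0.30, adjusted p = 0.0511) and with only the 2 groups in the fit (-0.30, adjusted p = 0.124). Without KO acetate 2 or without KO acetate 4, 2 members were called, both lower. Of all genes, 425 of 15311 were lower and 236 higher without KO acetate 2. Without KO acetate 4, 237 of 15294 were lower and 134 higher. DESeq2 called 6 lower (Gpi1, Aldoa, Gapdh, Pgk1, Pgam1 and G6pdx), compared with 4.1% of the 12246 genes to which it gave an adjusted p, and none higher, compared with 2.65%. All 7 enzymes of lower glycolysis had a value below 0, with a median of -0.21, and the median of the 8 pentose genes was 0.0073. The libraries of KO acetate and WT acetate cells did not overlap for 7 members, Slc2a1, Gpi1, Gapdh, Pgk1, Pgam1, Eno3 and G6pdx, each lower in KO, compared with 4.86% of all genes tested that lay lower and 4.5% that lay higher without overlap. At an unadjusted p under 0.05, edgeR placed 10 members lower and none higher, compared with 9.64% and 8.79% of all genes tested. An adjusted p above 0.05 does not show that the other members were equal.

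KO acetate against WT untreated cells shows where the members stood after acetate relative to WT cells that received none. Of the 33, 16 were lower, against 13.5% of all genes tested, and 4 were higher, against 12.9% of all genes. Among the 17 glycolytic enzymes 10 were lower and 2 higher, with a median of -0.39. Of the genes that had fallen in KO untreated cells, Hk1 (-0.032, SE 0.068), Hk2 (0.087, SE 0.087), Pfkp (0.18, SE 0.12) and Pfkfb3 (0.090, SE 0.065) were not called in this comparison. Nor were the pentose genes Pgd and Taldo1, which had also fallen. Pgd averaged 137.5 CPM in KO acetate and 157 CPM in WT untreated cells, and Taldo1 averaged 147 and 134 CPM. Slc2a1 (-0.70, adjusted p = 2.66e-05), Pfkl (-0.70, adjusted p = 2.26e-06), Gapdh (-0.63, adjusted p = 0.000139), Tpi1 (-0.62, adjusted p = 1.53e-05), Gpi1 (-0.53, adjusted p = 2.26e-05) and Pgm1 (-0.51, adjusted p = 0.000118) had the most negative log2 fold changes among those called. The 4 higher genes were Eno3 (0.49, adjusted p = 0.00507), Tigar (0.42, adjusted p = 0.000449), Pfkfb4 and Bpgm (0.24, adjusted p = 0.00387). In the pentose branch 4 of 8 were lower, G6pdx (-0.21), Pgls (-0.34), Rpia (-0.17) and Tkt (-0.20). The call for G6pdx was lost without KO acetate 1 (-0.21), KO acetate 2 (-0.20), WT untreated 1 (-0.20) or WT untreated 2 (-0.18). Rpia was lost without KO acetate 1 (-0.16), KO acetate 4 (-0.13), WT untreated 2 (-0.17), WT untreated 3 (-0.16) or WT untreated 4 (-0.15), and Tkt without KO acetate 1 (-0.17), WT untreated 2 (-0.18) or WT untreated 3 (-0.19). Without the high-share libraries G6pdx was -0.19 (adjusted p = 0.0977) and Rpia -0.21 (adjusted p = 0.0546). With library totals G6pdx, Rpia, Tkt and Adpgk were not called, nor were they with upper-quartile scaling. Adpgk had -0.20 (adjusted p = 0.0112) with TMM, -0.15 with library totals and -0.14 with upper-quartile scaling. Rpia was also not called with only the 2 groups in the fit (-0.18). KO untreated cells had the lowest mean of the 4 groups for 16 members, compared with 34.1% of all genes, and WT untreated cells had the highest mean for 15 members, compared with 19.1% of all genes.

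**Figure D5:**
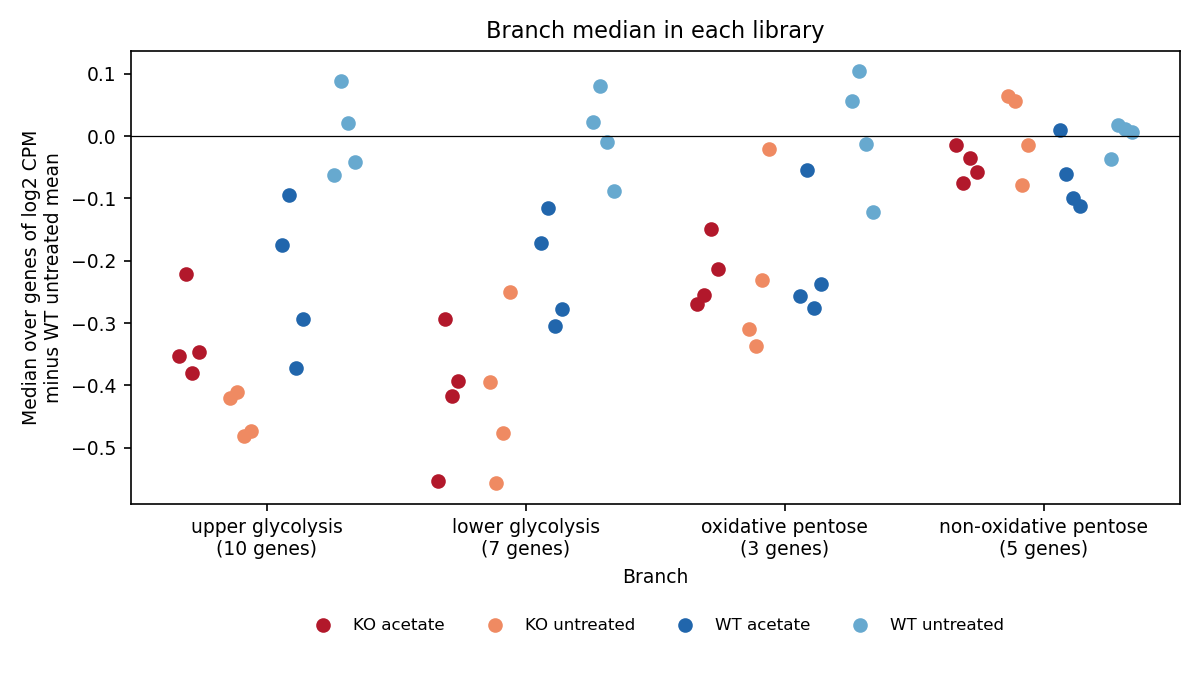
For each library (points), the median over a branch's genes of log2 CPM minus the gene's mean in WT untreated libraries, for upper glycolysis, lower glycolysis and the oxidative and non-oxidative pentose arms, with the groups from KO acetate to WT untreated in each branch. In upper and lower glycolysis all KO libraries lie below all WT untreated libraries, and in the non-oxidative arm the groups overlap.

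The medians per library set the branches side by side. Over the 17 enzymes of upper and lower glycolysis, relative to the mean of WT untreated libraries, the median lay between -0.55 and -0.27 in KO acetate, -0.48 and -0.41 in KO untreated, -0.31 and -0.12 in WT acetate and -0.048 and 0.084 in WT untreated libraries. Over the 8 pentose genes it lay between -0.21 and -0.053 in KO acetate, -0.091 and -0.0070 in KO untreated and -0.16 and -0.058 in WT acetate libraries. The WT untreated libraries lay between 0 and 0.035 for the pentose genes. For glycolysis and for the pentose branch alike, all 8 KO libraries lay below all 4 WT untreated libraries. The pentose medians of KO untreated libraries lay close to 0, with rises and falls among the genes. No test was made of the branches, whose members were listed with results of these data known.

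Genes around the pathway, taken from a list of 41 of which 32 were tested, moved in both directions in KO untreated against WT untreated cells, with 10 higher, against 18% of all genes tested, and 9 lower, against 18.6%. The genes of galactose entry fell. Galk1, galactokinase, averaged 69.9 ± 5.76 CPM in KO acetate cells, 40.5 ± 3.03 CPM in KO untreated cells, 79.5 ± 3.07 CPM in WT acetate cells and 73.5 ± 4.85 CPM in WT untreated cells. Its genotype difference was -0.86 (SE 0.071, adjusted p = 1.21e-07). Galm, the mutarotase, averaged 38.8 ± 2.49 CPM in KO acetate cells, 19.1 ± 2.71 CPM in KO untreated cells, 43.3 ± 1.44 CPM in WT acetate cells and 29.8 ± 3.06 CPM in WT untreated cells, with a difference of -0.64 (adjusted p = 3.46e-05). Gnpda1, which returns glucosamine phosphate to glycolysis, averaged 74.8 ± 2.52 CPM in KO acetate cells, 44.7 ± 5.19 CPM in KO untreated cells, 81.7 ± 1.97 CPM in WT acetate cells and 76.7 ± 2.77 CPM in WT untreated cells. It also fell (log2 fold change -0.78, SE 0.068, adjusted p = 2.15e-07). Acetate raised all 3 in KO cells, Galk1 by 0.79, Galm by 1.02 and Gnpda1 by 0.74 on the log2 scale, and the acetate effects differed between the genotypes (adjusted p = 0.000334, 0.0199 and 0.000322). Ugp2, which makes UDP-glucose, also fell in KO untreated cells (-0.49, adjusted p = 0.000173) and rose with acetate there (0.55, adjusted p = 3.2e-05). Pgp, the phosphoglycolate phosphatase, fell in KO untreated cells (-0.61, adjusted p = 0.000889) and was not called with acetate in KO cells (0.036).

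Other genes of the list were higher in KO untreated cells. Slc2a6, a glucose transporter family member of lysosomes, averaged 25.2 ± 1.67 CPM in KO acetate cells, 42.9 ± 2.64 CPM in KO untreated cells, 21.9 ± 3.79 CPM in WT acetate cells and 22.8 ± 1.27 CPM in WT untreated cells. It rose by 0.91 on the log2 scale (SE 0.10, adjusted p = 1.65e-06). Gbe1, the glycogen branching enzyme, averaged 8.32 ± 0.989 CPM in KO acetate cells, 19 ± 2.04 CPM in KO untreated cells, 7.82 ± 0.868 CPM in WT acetate cells and 11.4 ± 1.03 CPM in WT untreated cells. Its difference was 0.73 (adjusted p = 4.9e-05). Pfkfb1, the liver-type regulator, averaged 4.99 ± 0.484 CPM in KO acetate cells, 8.45 ± 0.771 CPM in KO untreated cells, 4.45 ± 0.840 CPM in WT acetate cells and 4.68 ± 1.10 CPM in WT untreated cells, a difference of 0.85 (adjusted p = 0.000537). Acetate lowered these 3 in KO cells, with log2 fold changes of -0.77 for Slc2a6, -1.19 for Gbe1 and -0.76 for Pfkfb1. Prpsap2, a partner of the phosphoribosyl pyrophosphate synthetases, rose in KO untreated cells (0.43, adjusted p = 0.000151), and its relative Prpsap1 fell (-0.28, adjusted p = 0.0112), while acetate in KO cells gave -0.43 for Prpsap2 and 0.50 for Prpsap1, both called. Over the 32 genes, acetate in KO cells raised 8, against 22.1% of all genes tested, and lowered 9, against 21.6%. In WT cells it raised 2, against 7.89% of all genes, and lowered 2, against 7.55%. KO acetate against WT acetate cells gave no call among the 32 in edgeR. At an unadjusted p under 0.05, 2 of the 32 were higher and 5 lower in that comparison, against 8.79% and 9.64% of all genes. DESeq2 called 2 lower, against 4.1% of the genes to which it gave an adjusted p, and none higher, against 2.65%.

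Further genes of the list were called in KO untreated against WT untreated cells. Eno2, the neuronal enolase (0.55, adjusted p = 0.0408), Pgm2l1, a phosphoglucomutase relative (0.35, adjusted p = 0.00284), Pgm3 and Gfpt1 of the hexosamine pathway (0.29, adjusted p = 0.0131 and 0.28, adjusted p = 0.00854) and Prps2 (0.13, adjusted p = 0.0486) rose. Mpi, the mannose phosphate isomerase (-0.32, adjusted p = 0.0133), fell. Rbks and Shpk, which encode sugar kinases, were low in counts. Rbks fell (log2 fold change -1.19, SE 0.24, adjusted p = 0.000719) and Shpk rose (log2 fold change 0.66, SE 0.19, adjusted p = 0.00989), and they averaged 1.69 to 5.06 CPM and 3.10 to 4.88 CPM over the groups. In WT cells acetate raised Eno2 (0.65, adjusted p = 0.0379) and Galm (0.54, adjusted p = 0.00054) and lowered Gbe1 (-0.55, adjusted p = 0.00245) and the glycogen phosphorylase gene Pygb (-0.30, adjusted p = 0.00234). In KO cells it lowered Pygb (-0.26, adjusted p = 0.00182), the glucose phosphatase gene G6pc3 (-0.40, adjusted p = 0.0145), Gfpt1 (-0.26, adjusted p = 0.0111) and Prps2 (-0.19, adjusted p = 0.00379), and raised H6pd, the dehydrogenase of the endoplasmic reticulum pentose arm (0.22, adjusted p = 0.0223). These genes are described only by their own tests.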

How the data were processed

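RNA-seq libraries of mouse Th17 cells, 16 in 4 groups of 4, were analysed. The deposited values are estimated counts of the authors, 1 whole number per gene and library, used as they stand. Per the submitters' processing notes, Salmon, DESeq2 and DESeq were used, without versions or roles, while the sources used here give no build, annotation or rounding step. Of 15571 genes, 15221 matched a name in the reference table by identifier and 350 did not. Genes were kept by edgeR's default expression filter (14985 tested), scaled by TMM and fitted in R 4.3.3 with edgeR 4.0.16 (robust quasi-likelihood, 1 model of 4 group means over all 16 libraries, common biological coefficient of variation 0.144). The adjusted p threshold was 0.05. No sample pairing or batch was used as a covariate. Depth was 24.57 M to 33.72 M counts per library.

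Alternatives were library totals, RLE and upper-quartile scaling, no filter, DESeq2 1.42.0, a replicate block, fits of the compared groups only, and leaving out each library or the 4 libraries with an unnamed gene above 3% of counts. Levels per kilobase and isozyme shares used transcript lengths from GENCODE (longest protein-coding transcript), which may differ from the authors' annotation. The members and the lists of genes were chosen with earlier results of these data known. Values per library are given for the up to 3 members of each branch with the smallest adjusted p in any comparison; those of Hk2, Pfkp and, in the acetate groups, Gpi1, and the promoters shown, were chosen after their values were seen. A few near-identical copies could share reads with the members.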

Additional observations from a re-analysis of the deposited data

Results flagged for a closer look

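In 7 of the 132 sets of 4 libraries checked (33 genes in 4 groups), 1 library stood far from the other 3, and chance alone gives about 1 in 20 such sets. Hk1 was 198 CPM in KO acetate 4 against 232 to 237 CPM in the others of its group, and Aldoa was 906 CPM in KO acetate 2 against 730 to 750 CPM. Pfkfb3 was 62.9 CPM in KO acetate 3 against 56.8 to 57.1 CPM. Gpi1 was 344 CPM in KO untreated 4 against 313 to 315 CPM, and in the same library G6pdx was 76.7 CPM against 62.7 to 64.4 CPM. Pgm2 was 29.7 CPM in WT untreated 1 against 37.2 to 37.5 CPM, and Pgd was 141 CPM in WT untreated 4 against 161 to 164 CPM.

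The acetate effect, tested as an interaction, differed between KO and WT cells for 11 members. The difference (KO effect minus WT effect, log2) was 0.652 for Hk1, 0.737 for Hk2, 0.666 for Pfkp, 0.604 for Pfkfb3, 0.33 for Tpi1, 0.338 for Tigar, 0.32 for Pkm, 0.37 for Pgm1 and 0.264 for Taldo1. It was -0.296 for Adpgk and -0.498 for Pgls. In edgeR's quasi-likelihood F test the adjusted p lay between 0.000338 (Hk1) and 0.0478 (Taldo1).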

How the results depend on the processing

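No called value changed sign in any alternative. Values that were not called changed sign 126 times, none larger than 0.151 in size (log2 fold change) and none called afterwards. Among those given above, Pfkfb3 in KO acetate against WT acetate cells became -0.00474 with RLE scaling, -0.0075 without the filter, -0.00548 with DESeq2, -0.00183 with only the groups compared and -0.044 to 0.037 with 1 library left out, and Prps1 became -0.00225 without the high-share libraries and -0.011 to 0.040 with 1 left out. For acetate in WT cells, library totals gave 0.0079 for Hk1 and 0.037 for Prps1 (upper-quartile scaling 0.022), and left-out ranges were -0.038 to 0.013 for Prps1 and -0.034 to 0.041 for G6pdx. For acetate in KO cells, library totals gave 0.00219 for Gpi1 and 0.026 for Pgm1, the fit without the high-share libraries gave -0.038 for Pkm and -0.032 for G6pdx, and the left-out range for G6pdx was -0.00253 to 0.099. For KO acetate against WT untreated cells, Hk1 became 0.011 with library totals, 0.027 with upper-quartile scaling and -0.073 to 0.024 with 1 left out. Counting each member value once per alternative run, calls were kept 1310 times and missed the threshold 175 times. Values that were not called came to pass it 86 times. In every alternative 17 of 24 calls for KO untreated against WT untreated cells were kept, 10 of 16 for acetate in WT cells, 14 of 16 for acetate in KO cells, 15 of 20 for KO acetate against WT untreated cells, 5 of 11 for the interaction and 0 of 1 for KO acetate against WT acetate cells. In that last comparison the count of 1 became 0 with library totals, 0 with only the groups compared, 6 with DESeq2 and 0 to 2 with 1 library left out. For acetate in WT cells the count of 16 became 10 with library totals and 10 to 17 with 1 library left out. For the interaction the count of 11 became 6 without the high-share libraries and 6 to 13 with 1 library left out. With 1 library left out the other counts were 22 to 25 (KO untreated against WT untreated cells), 14 to 18 (acetate in KO cells) and 16 to 20 (KO acetate against WT untreated cells).

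The labels do not say that a replicate number marks a shared mouse or day, and libraries were not treated as pairs. Of 24 same-numbered pairs 9 had a correlation of deviations over 0.1 (range -0.084 to 0.229). The finding that 9 of 16 libraries correlated best with their own number is a hint of pairing from the data, not from the design. With a replicate block the counts were 25 (KO untreated against WT untreated), 2 (KO acetate against WT acetate), 19 (acetate in WT), 18 (acetate in KO), 21 (KO acetate against WT untreated) and 15 (interaction). Aldoc, Pfkfb2 and Pfkfb4 rest on the fewest counts.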
